A study of Mus musculus with 18 samples.

Results

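At embryonic day (E) 6.75, 62 cells that held T transcripts but none of Foxa2 were compared by whether they held Mesp1: 19 cells had at least 1 Mesp1 transcript (called Mesp1 cells here) and 43 had none (called other T cells). They are 62 of the 972 cells in the series with at least 2000 nuclear transcripts. The data are single-cell RNA sequencing libraries of wild-type C57BL/6 mouse embryos, with no treatment and no altered gene in any group. At E6.75 the extraembryonic part was removed, each embryo was dissociated on its own, and cells were picked by hand and read by CEL-Seq2, in which a barcode marks the cell and a random tag, the UMI, marks each captured polyadenylated RNA. The E7.5 cells used beside them came from pooled litters, kept the extraembryonic mesoderm and were flow sorted. The labels do not tie cells to embryos. P-values therefore measure how the difference between Mesp1 cells and other T cells varies between libraries, with a variance partly shared across genes by the fit. At E6.75 these were 3 libraries, 2_9, 2_13 and 2_14, which may share litters or embryos.

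The primitive streak is the site on the posterior side of the epiblast where cells leave the epithelium during gastrulation. Cells there switch on T (brachyury) and Eomes, T-box transcription factors, under NODAL, WNT and BMP signals. They lose epithelial adhesion by an epithelial to mesenchymal transition (EMT), for which Snai1 is a central repressor of Cdh1, and move out as mesoderm or definitive endoderm. Mesp1 is a basic helix-loop-helix transcription factor of the first nascent mesoderm, the source of heart and other anterior mesoderm, while Foxa2 marks endoderm and axial precursors and visceral endoderm.

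The cells were chosen from their counts. In the 3 libraries, 284 cells had at least 2000 transcripts, and 37 with at least 5 transcripts of Ttr, Apoa1 and Spink1 per 10000, genes of visceral endoderm, were left out. Of the remaining 247 cells, 112 held T, and 50 of these also held Foxa2 and were left out, which gave the 62. Library 2_9 gave 2 Mesp1 cells and 7 other T cells, 2_13 gave 8 and 12, and 2_14 gave 9 and 24. The summed depth of the Mesp1 cells was 94180 transcripts in 2_9, 427339 in 2_13 and 547167 in 2_14, and that of the other T cells was 449339, 580478 and 1264327. The median depth per cell was 61109 transcripts in Mesp1 cells and 54104 in other T cells. Libraries 2_13 and 2_14 had no used barcode in common, and 2_9 shared 48 with each, while 6 barcodes not used in 2_13 but used in 2_14 held 2473 to 8775 transcripts in 2_13. At the thresholds, the shallowest cell compared had 2024 transcripts and the deepest barcode left out had 1901. The highest visceral endoderm score of a compared cell was 2.95 per 10000 and the lowest of a cell left out was 5.63.

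The genes that set the choice are described without a test. Levels are given as CPM, the count of a gene divided by all transcripts of the summed cells and scaled to 1000000. T was at 308 CPM in the summed Mesp1 cells of 2_9, 780.2 in 2_13 and 659 in 2_14, against 60.2, 37.9 and 117 in the other T cells. Mesp1 was at 63.8, 607 and 362 CPM in Mesp1 cells. Most Mesp1 cells were rich in T, with at least 5 T transcripts in 18 of 19 and a median of 24. Most other T cells were not: 25 of 43 held a single T transcript, 13 held 2 to 4 and 5 held at least 5. The name streak cell therefore rests on 1 molecule of T for most of them. T was also found in 5 of the 37 cells left out for visceral endoderm genes (13.5%, 95% exact interval 4.54% to 28.8%, median depth 23368), a cell type that should lack it, and in 112 of the 247 others (45.3%, interval 39.02% to 51.8%, median depth 53182). Such intervals cover counting error only. Among the 5 visceral endoderm cells with T, the highest count was 14, so not all of these were single molecules.

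**Figure D1:**
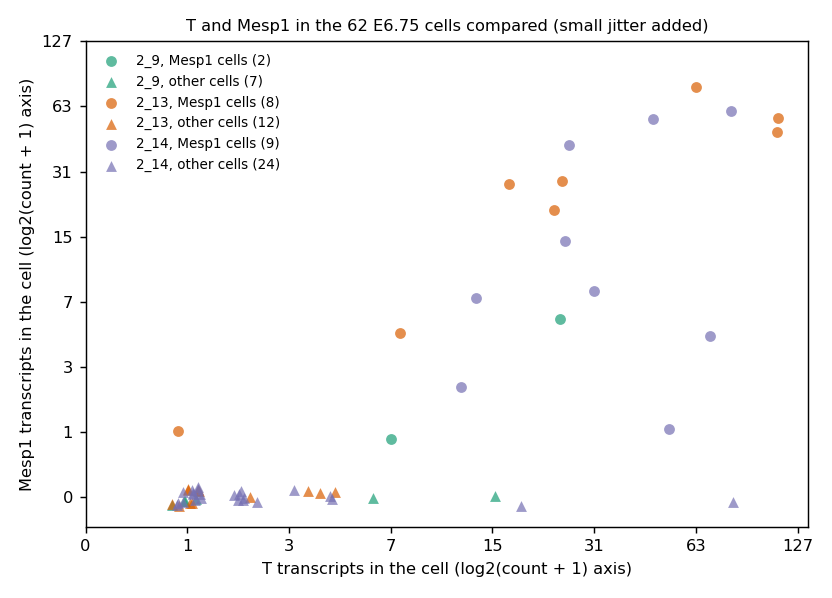
T (x axis) and Mesp1 (y axis) transcripts in each of the 62 cells, on log2(count + 1) axes with a small jitter, coloured by library. Mesp1 cells (circles) hold a median of 24 T transcripts, while 25 of the 43 other T cells (triangles) hold 1.

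The stretches printed here lie at the start sites of Mesp1, which chose the cells, and of some genes higher in Mesp1 cells. They show whether these genes carry the short letters that factors of the streak are known to prefer. The windows are RefSeq promoters (GRCm38.p6) of 300 bases, 250 before and 50 after the start, and both strands were searched for GTGTGA (T-box factors), CTTTGAT (TCF and LEF factors of WNT signalling) and AATNCACA (Foxh1, a partner of NODAL signalling), of which the first and last can overlap. Capitals mark the matches. Mesp1 had a CTTTGAT match at bases 220 to 226 of its window and a T-box match on the opposite strand at bases 256 to 261, shown with 30 bases around each (chr7:79793604-79793633 and chr7:79793568-79793597, minus strand, in the 5′ UTR that GENCODE annotates there). Sp5, a direct target of WNT signalling, had CTTTGAT at bases 147 to 153 of its window (chr2:70474673-70474922, plus strand, the 250 bases before its start). Snai1 is shown for contrast, with none of the 3 motifs in its window (chr2:167537945-167538194, plus strand).
Mesp1, TCF/LEF match: ggctcgagccggCTTTGATatgctgatgaa
Mesp1, T-box match: aaggggcccgctTCACACctagggctcagg
Sp5: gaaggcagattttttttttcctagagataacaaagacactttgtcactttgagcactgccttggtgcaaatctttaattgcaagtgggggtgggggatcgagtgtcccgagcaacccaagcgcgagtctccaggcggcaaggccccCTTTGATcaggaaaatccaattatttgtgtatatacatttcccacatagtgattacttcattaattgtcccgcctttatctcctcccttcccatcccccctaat
Snai1: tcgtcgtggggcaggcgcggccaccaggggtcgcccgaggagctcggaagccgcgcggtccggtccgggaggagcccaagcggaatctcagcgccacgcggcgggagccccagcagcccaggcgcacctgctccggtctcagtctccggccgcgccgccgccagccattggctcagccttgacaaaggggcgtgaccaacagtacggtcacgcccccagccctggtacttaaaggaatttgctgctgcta

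Lhx1 and Cyp26a1 had none of the 3 motifs in their windows either, and Mixl1 had no window and was not searched. Of 27025 promoter windows, 14.4% held the T-box letters, 3.72% the TCF and LEF letters and 3.63% the Foxh1 letters. Among the genes tested below, 4878 of 6367 had a window, of which 9.68%, 2.54% and 1.76% held them. Of the 95 genes higher in Mesp1 cells, 67 had a window, and 11, 3 and 0 of these held the 3 motifs. Of the 114 genes lower in Mesp1 cells, 85 had a window, and 4, 2 and 1 held them. A match is a description of the letters in a short window, and no test was made.

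Mesp1 cells were higher than other T cells in streak and mesoderm transcription factors, most of which entered the test through the Mesp1 cells. In epiblast and epithelial genes, Mesp1 cells were lower. Transcripts were summed per library and gate, and the gates were compared within libraries by edgeR's quasi-likelihood F test. Of 6367 genes tested, 209 differed at a Benjamini-Hochberg adjusted p under 0.05 (3.28%), of which 95 were higher (1.49%) and 114 lower (1.79%) in Mesp1 cells. The difference had the same sign in all 3 libraries for 178 of the 209. The values of the gates did not overlap for 162 of them, where 15.9% of all genes tested did not overlap. The count rests on library 2_13: without it 4 genes passed, namely Lhx1, Mixl1, Snai1 and Cyp26a1, while without 2_14 or 2_9 the count was 107 or 271. All 209 genes kept their sign without 2_13, as did all 209 without 2_9 and the 190 that could be tested without 2_14. DESeq2 called 58 genes, all among the 209. With no filter on low counts, 332 of 16224 genes passed (2.05%), 208 of them among the 209.

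Among streak and mesoderm transcription factors, 6 of 26 listed genes passed the filter on low counts, and Lhx1, Mixl1, Sp5, Evx1, Gsc and Eomes rose. All but Eomes were too low in other T cells to pass that filter without the Mesp1 cells, so they had to be higher there, and their number is only a description. The same holds for any gene, in a list or not, that was too low in 1 of the gates to pass the filter without the other gate. The median log2 fold change of all genes tested was −0.01. Lhx1 (chromosome 11, 84518284 to 84525535, minus strand), a LIM homeobox factor, was at 31.9 CPM in the Mesp1 cells of 2_9, 719 in 2_13 and 459 in 2_14, against 2.23, 10.3 and 6.34 in other T cells. Every Mesp1 value lay above every other value, and the log2 fold change was 6.02 (SE 0.287, edgeR adjusted p = 1.23e-12). Lhx1 was at 734 CPM in the 37 cells with visceral endoderm genes, where it is also known to be expressed. Mixl1 (chromosome 1, 180693043 to 180697034, minus strand), a homeobox factor of the streak, was at 351, 691 and 368 CPM against 11.1, 12.1 and 30.1. It was found in 19 of 19 Mesp1 cells and 16 of 43 other T cells, and 58.0% of the transcripts in the other T cells came from 1 cell. Its log2 fold change was 4.43 (SE 0.281, edgeR adjusted p = 2.76e-10).

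Eomes, which acts upstream of Mesp1 in the streak, was less exclusive. It was at 957, 1064 and 767 CPM in Mesp1 cells against 292, 307 and 396 in other T cells (log2 fold change 1.44, SE 0.159, edgeR adjusted p = 2.09e-06). The gates did not overlap. Its mean in 98 cells with none of T, Mesp1 or Foxa2 was 130.4 ± 42.4 CPM (SD, n = 3 libraries), so other T cells lay between the cells without T and the Mesp1 cells. Evx1, a homeobox factor of the posterior streak, showed the same order, with means of 2.26 ± 0.658 CPM in cells without T, 25.4 ± 9.33 in other T cells and 143 ± 23.3 in Mesp1 cells (SD, n = 3). Its log2 fold change between the gates was 2.49 (SE 0.278, edgeR adjusted p = 2.45e-06). Gsc, the goosecoid homeobox factor of the anterior streak, was at 31.9, 49.2 and 47.6 CPM against 2.23, 10.3 and 9.50, but its direction turned when Foxa2-positive cells were let in (log2 −0.0985).

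**Figure D2:**
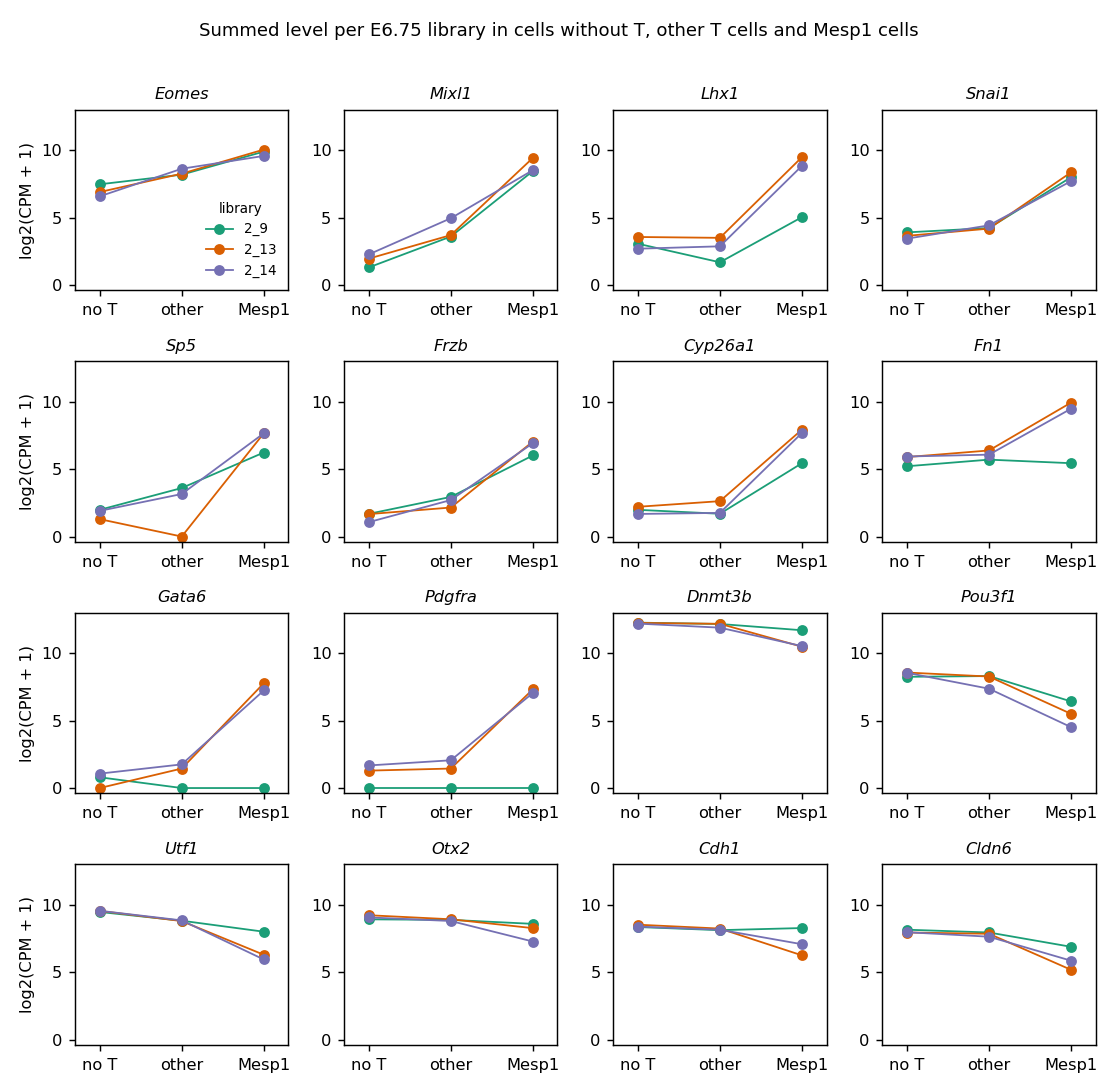
Level of 16 genes, as log2(CPM + 1), in the summed cells without T, other T cells and Mesp1 cells of each E6.75 library (lines join the 3 sums of 1 library). Mixl1, Snai1, Sp5, Frzb and Cyp26a1 rise towards Mesp1 cells in all 3 libraries, and Fn1, Gata6 and Pdgfra do so in 2_13 and 2_14 but not in 2_9.

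The remaining mesoderm factors were too sparse for the test. Its filter on low counts asks for a minimum level in 3 sums. A gene seen only in Mesp1 cells meets this only if the 2 Mesp1 cells of 2_9 hold it too. Gata6, a zinc finger factor of cardiac and endodermal tissue, was at 0, 218 and 150.05 CPM in Mesp1 cells and at 0, 1.72 and 2.38 in other T cells. Gata4, its relative, was at 0, 267 and 212 CPM against 0, 6.90 and 6.34. Pdgfra, the receptor that marks early mesoderm, was at 0, 159 and 132 CPM against 0, 1.72 and 3.17. All 3 genes were thus high in 2_13 and 2_14 and undetected in 2_9, where 3 transcripts would have made 31.9 CPM. In the joint fit with the E7.5 libraries, where they could be tested, their E6.75 log2 fold changes were 6.12, 5.08 and 5.55 (edgeR adjusted p = 1.92e-05, 3.33e-07 and 3.33e-07). These values rest on 2_13 and 2_14 alone, and on only 4, 12 and 5 transcripts in the pooled other T cells. Gata6 and Gata4 were at 72.8 and 240.7 CPM in the cells with visceral endoderm genes, and Pdgfra was at 9.10.

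These genes were found together in the same cells. Of 19 Mesp1 cells, 13 held transcripts of all 3 of Gata6, Gata4 and Pdgfra, 2 held 1 of them and 4 held none, while of 43 other T cells none held all 3 and 30 held none. Mesp2, the neighbour and close relative of Mesp1, was found in 12 of 19 Mesp1 cells and 0 of 43 other T cells. Meis2, a homeobox factor, was found in 16 and 6 cells, and Tbx6, a T-box factor of paraxial mesoderm, in 6 and 0. Msgn1, a marker of presomitic mesoderm, was found in no cell of either gate. The 5 Mesp1 cells with fewer than 5 Mesp1 transcripts differed from the 14 with more: Lhx1 was at 56.6 CPM in their sum and 629.9 in the 14, and Gata6 was at 5.15 and 199 CPM. T was at 726 CPM in the sum of the 5 and 665 in that of the 14, but its median count per cell was 12 against 25. In the 5, T ran from 1 to 73 transcripts per cell, and in the 14 from 8 to 100. These values come from pooled cells and have no replicate check.

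**Figure D3:**
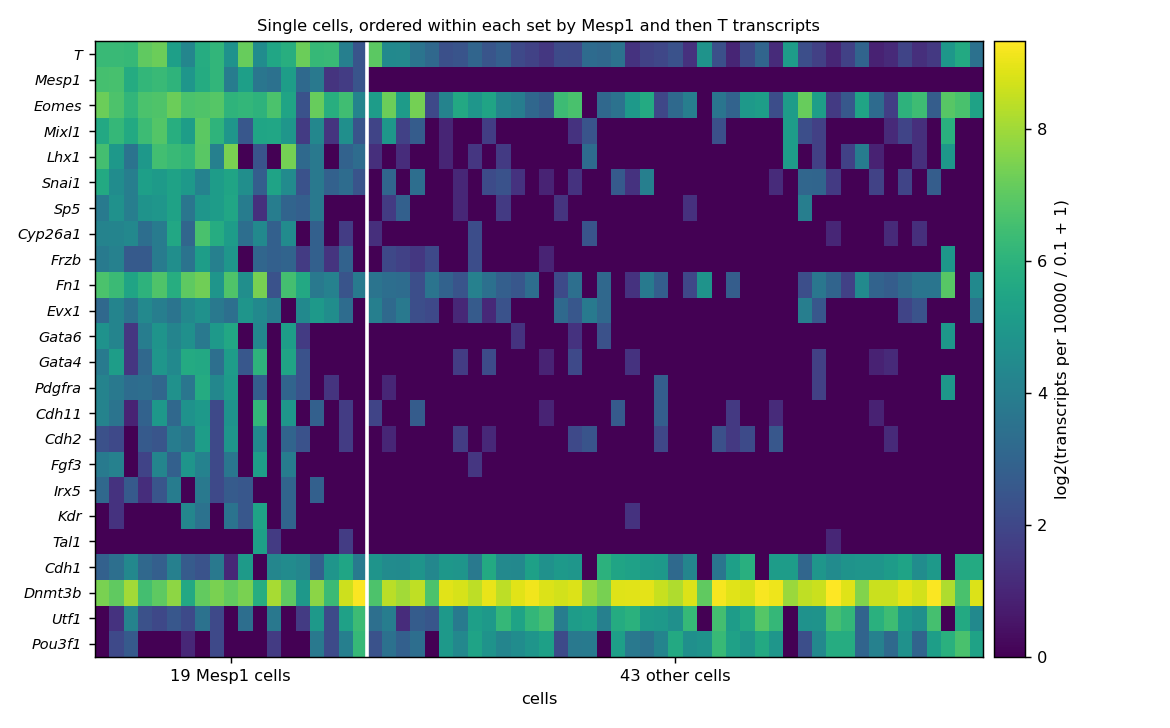
Transcripts per 10000, as log2(value / 0.1 + 1), of 24 genes (rows) in the 62 cells (columns), ordered within each gate by Mesp1 and then T counts. Gata6, Gata4 and Pdgfra occur together in 13 of the 19 Mesp1 cells, and in 0 of the 43 other T cells.

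Among 18 genes of EMT and mesenchyme, 9 were tested, of which 3 rose (Snai1, Fn1 and Vim), none fell and 6 did not pass, with a median log2 fold change of 0.71. Snai1 and Vim passed the filter on low counts only with the help of the Mesp1 cells, so the number that rose is only a description. Snai1, the zinc finger repressor of epithelial genes (chromosome 2, 167538195 to 167542814, plus strand), was at 255, 328 and 209 CPM in Mesp1 cells against 17.8, 17.2 and 20.6 in other T cells. Its values were alike across libraries in both gates and far apart between them (log2 fold change 3.71, SE 0.254, edgeR adjusted p = 6.95e-10). Fn1, fibronectin, an extracellular matrix protein that migrating mesoderm lays down, was at 42.5, 979 and 715 CPM against 51.2, 82.8 and 66.5. Library 2_9 went against the others here, and the edgeR adjusted p was 2.75e-07 with all 3 libraries but 0.546 without 2_13. Vim, vimentin, an intermediate filament protein of mesenchyme, was at 95.7, 63.3 and 73.2 CPM against 29.0, 19.0 and 45.9 (log2 fold change 1.17, edgeR adjusted p = 0.0462) and passed under 6 of 20 alternative settings. Cdh2 (N-cadherin) and Cdh11 were too sparse for this test but had joint fit log2 fold changes of 3.36 and 4.51 (edgeR adjusted p = 1.92e-05 and 3.40e-06), and each stood at 10.6 CPM in Mesp1 cells and 13.4 in other T cells of 2_9.

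Epithelial genes went the other way. Of 11 tested among 18 listed, 6 fell (Cdh1, Epcam, Cldn6, Cldn7, Krt18 and Pkp2), 1 rose (Dsp) and 4 did not pass. The median log2 fold change was −1.07, and 1.79% of all genes tested fell. Here too, any member too low in 1 gate to pass the filter without the other gate had its direction set, so the count is only a description. Cldn6, a tight junction claudin, was at 117, 35.1 and 56.7 CPM in Mesp1 cells against 245, 229 and 197 (log2 fold change −1.94, SE 0.250, edgeR adjusted p = 1.57e-05). Cdh1 (E-cadherin) was at 308, 74.98 and 134 CPM against 276, 300.1 and 283. It was therefore lower in 2_13 and 2_14 but not in 2_9 (log2 fold change −1.07, SE 0.246, edgeR adjusted p = 0.0128). Cdh1 transcripts were still found in 18 of 19 Mesp1 cells, with a median of 5 per cell against 15 in other T cells. Dsp, desmoplakin, a desmosome protein, was at 42.5, 46.9 and 45.7 CPM against 8.91, 3.45 and 6.34 (log2 fold change 2.90, edgeR adjusted p = 0.000824). Its partner in desmosomes, Pkp2, fell (log2 fold change −2.38, edgeR adjusted p = 0.00214).

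Epiblast and pluripotency genes held the largest number of lowered members, in the list with the most genes tested. Of 21 tested among 24 listed, 12 fell, 3 rose and 6 did not pass, with a median log2 fold change of −0.92. Of all genes tested, 1.79% fell and 1.49% rose. Any member too low in 1 gate to pass the filter on low counts without the other gate had its direction set. The count is therefore only a description. Pou3f1, a POU factor of the epiblast and early ectoderm, was at 85.0, 44.5 and 22.0 CPM in Mesp1 cells against 316, 309 and 165 (log2 fold change −2.64, SE 0.245, edgeR adjusted p = 1.63e-07). It was found in 9 of 19 Mesp1 cells and 40 of 43 other T cells. Dnmt3b, the de novo DNA methyltransferase of the epiblast, was at 3349, 1436 and 1480.4 CPM against 4621, 4664 and 3827, and it was found in all 19 Mesp1 cells (log2 fold change −1.20, SE 0.144, edgeR adjusted p = 7.46e-06). Utf1, a chromatin factor of pluripotent cells, was at 255, 77.3 and 60.4 CPM against 450.1, 442 and 458. In all of these the 2 Mesp1 cells of 2_9 stood nearest to the other T cells.

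Foxd3, Eras, Slc7a3, Trh, L1td1, Fgf5, Otx2, Dnmt3a and Pim2 made up the rest of the lowered set, with log2 fold changes from −3.27 (Foxd3) to −0.89 (Dnmt3a). Tdgf1 and Sall4 were among those that rose, with log2 fold changes of 1.30 and 0.48. Nanog and Pou5f1 (Oct4), core pluripotency factors, did not pass: their log2 fold changes were −0.10 (SE 0.230, edgeR adjusted p = 0.939) and −0.41 (SE 0.153, edgeR adjusted p = 0.196). Sox3, a factor of neural ectoderm, fell (log2 fold change −2.13, edgeR adjusted p = 0.0132) and was the only gene of its list that could be tested.

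**Figure D4:**
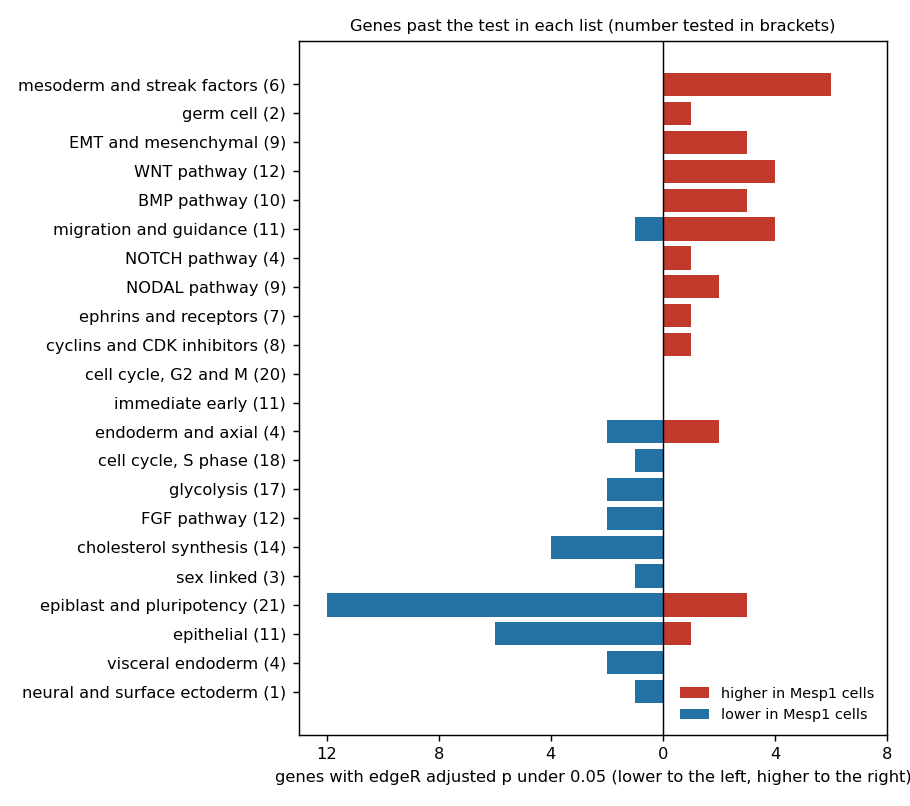
Number of genes per list with an edgeR adjusted p under 0.05, lower in Mesp1 cells to the left and higher to the right, with the number tested in brackets. The epiblast and epithelial lists have 12 of 21 and 6 of 11 lowered, where 1.79% of all genes tested were lowered. In the mesoderm and streak list, all 6 tested are raised, but all except Eomes passed the filter on low counts through the Mesp1 cells.

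Some WNT signalling genes were raised. Of 12 tested among 23 listed, 4 rose, none fell and 8 did not pass (median log2 fold change 0.42). Of all genes tested, 1.49% rose. Wnt3, Sp5 and Frzb were too low in other T cells to pass the filter on low counts without the Mesp1 cells. The count is therefore only a description. Wnt3, the ligand that starts the streak, was at 53.2, 117 and 183 CPM against 17.8, 17.2 and 45.1 (log2 fold change 2.17, edgeR adjusted p = 1.57e-05). Lef1, a transcription factor of the pathway, had a log2 fold change of 1.27 (edgeR adjusted p = 0.00238). Sp5, the target whose CTTTGAT match is printed above, was at 74.4, 201 and 201 CPM against 11.1, 0 and 7.92 (log2 fold change 4.74, SE 0.412, edgeR adjusted p = 6.84e-08). Frzb, a secreted WNT antagonist, was at 63.8, 131 and 121 CPM against 6.68, 3.45 and 5.54 (log2 fold change 4.38, SE 0.397, edgeR adjusted p = 1.16e-07). Axin2, a common readout of the pathway, did not pass (log2 fold change 0.76, SE 0.302, edgeR adjusted p = 0.238). The median of this list was −0.53 after each cell was thinned to 10000 transcripts, which left fewer genes to test.

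In the NODAL pathway, 2 of 9 genes tested rose and 7 did not pass (median log2 fold change 0.02, and −0.04 with DESeq2). Tdgf1 (Cripto), the NODAL co-receptor, was at 627, 1127 and 975 CPM against 377, 335 and 410.2 (log2 fold change 1.30, edgeR adjusted p = 1.02e-05). Lefty2, a NODAL antagonist and target, was at 10.6, 515 and 326 CPM against 33.4, 81.1 and 41.2, so that 2_9 went the other way. In the BMP pathway, 3 of 10 rose and 7 did not pass: Smad1, a signal transducer, and Msx1 and Id1, targets, with log2 fold changes of 1.94, 1.54 and 1.09 (edgeR adjusted p = 0.000372, 0.00939 and 0.00478). Msx1 and Id1 turned negative with at least 5 T transcripts in both gates (−0.29 each). In the FGF pathway, 2 of 12 fell, Fgf5 and Spry1, and 10 did not pass, with a median log2 fold change near that of all genes. Fgf5, a ligand of the epiblast, was at 85.0, 51.5 and 45.7 CPM against 143, 248 and 181. Spry1, a feedback inhibitor, had a log2 fold change of −2.10 (edgeR adjusted p = 0.00722). Fgf8, the ligand that streak cells need to migrate, did not pass (log2 fold change −0.01, SE 0.319, edgeR adjusted p = 0.995), and Fgf3, too sparse for the test, was at 0, 143 and 91.5 CPM against 0, 1.72 and 0.

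Cyp26a1, which breaks down retinoic acid and was in no list, was at 42.5, 244 and 205 CPM against 2.23, 5.17 and 2.38 (log2 fold change 5.79, SE 0.375, edgeR adjusted p = 3.07e-10). Cyp26a1 was too low in other T cells to pass the filter on low counts without the Mesp1 cells, so it had to be higher there. It was found in 16 of 19 Mesp1 cells and 6 of 43 other T cells, and it was at 693 CPM in the cells with visceral endoderm genes. The other genes among the 15 most raised with 1 sign in all libraries that no list held were Chst7, Chst2 and St6galnac4 (enzymes of glycan synthesis), Pcdh19 and Pcdh7 (protocadherins), Dlc1 (a GTPase-activating protein) and Adam19 (a metalloprotease). Their log2 fold changes ran from 2.87 (Chst2) to 4.48 (Chst7), of which those of Chst7 and Pcdh19 depend on the prior count of the fit, since other T cells held 3 transcripts of each. Jakmip2 was the most lowered by the fit, at 10.6, 0 and 0 CPM against 26.7, 34.5 and 42.8 (edgeR adjusted p = 0.000961), followed by Foxd3 and Xist. Jakmip2 was too low in Mesp1 cells to pass that filter without the other T cells, so it had to be lower there.

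Genes of migration and guidance were mixed, with 4 of 11 tested raised (Apln, Nrp2, Phlda2, which was not higher in 2_9, and Pdgfa), 1 lowered (Cyr61) and 6 not passed (median log2 fold change 0.28, but −1.48 after thinning). Apln, the peptide ligand of the apelin receptor, was at 319, 173 and 115 CPM against 6.68, 31.0 and 69.7 (log2 fold change 2.01, edgeR adjusted p = 0.00262). Of the ephrin list, Efna3 rose (log2 fold change 3.69, edgeR adjusted p = 3.72e-07) and 6 of 7 did not pass. Hes1, a NOTCH target, rose (log2 fold change 1.14, edgeR adjusted p = 0.00178) and the other 3 NOTCH genes tested did not pass. Ifitm1, a membrane protein of the nascent mesoderm and germ cells, rose (log2 fold change 2.70, edgeR adjusted p = 0.000304), though not in 2_9.

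Of genes of proliferation, none of 20 genes of the G2 and M phases passed, and 1 of 18 of S phase did, Ccne1 (cyclin E1; log2 fold change −0.75, edgeR adjusted p = 0.0212). Ccnd2 (cyclin D2) was the 1 cyclin of 8 tested cyclins and inhibitors to pass, at 128, 223 and 218 CPM against 17.8, 12.1 and 45.1 (log2 fold change 2.82, edgeR adjusted p = 5.20e-07). In the cholesterol list, 4 of 14 fell, among them Hmgcs1, Idi1 and Msmo1, and none rose, with a median log2 fold change of −0.87, where 1.79% of all genes tested fell. In glycolysis 2 of 17 fell, Slc2a1 and Ldhb, with a median of −0.13. None of 11 immediate early genes, which respond to handling, passed in either direction, and 5 of them had a positive sign.

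Markers of other cell types were counted over whole lists in both gates. Blood and endothelial genes summed to 31.9, 77.3 and 499.6 CPM in Mesp1 cells of 2_9, 2_13 and 2_14 and to 15.6, 34.5 and 17.4 in other T cells, with transcripts of 7 of 12 list genes in each gate and the globin gene Hbb-bh1 at 0. The high sum in 2_14 came mostly from Etv2, an endothelial and blood factor, at 348 CPM there. Tal1, a blood factor, had 26 of its 28 transcripts in 1 cell of 2_14, which also held 28 of the 63 transcripts of Kdr, the VEGF receptor. Visceral endoderm genes summed to 223, 162 and 205 CPM in Mesp1 cells and to 328, 302 and 364 in other T cells, with Afp and Cldn2 at 0 in both, and Lrp2 and Podxl fell. That list includes genes used to leave cells out, so its sums were in part kept low by the choice of cells. Extraembryonic ectoderm genes summed to 53.2, 25.8 and 53.1 CPM in Mesp1 cells and to 15.6, 8.62 and 35.6 in other T cells, higher in Mesp1 cells in each library. Germ cell genes summed to 74.4, 253 and 293 CPM against 98.0, 39.7 and 75.2, and genes of neural and surface ectoderm to at most 86.0 CPM in any sum. The endoderm and axial list, which shares Lhx1, Gsc and Gata6 with the mesoderm list, summed to 478, 1336 and 873 CPM against 604, 721 and 572, with Noto and Shh at 0 in both gates. Its definitive endoderm marker Sox17 had 3 transcripts in 1 Mesp1 cell and Cer1 had 1, with none of either in other T cells. Whether other cell types contributed to the differences was not tested.

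The share of mitochondrial transcripts and the level of Xist also differed between the gates. The median share of mitochondrial transcripts was 12.5% in Mesp1 cells and 15.1% in other T cells, and 7.71% against 13.2% in 2_13. Among cells with at least 5% mitochondrial transcripts, 105 of 6086 genes passed, of which 104 were among the 209. Xist, the RNA of the inactive X chromosome, was at 10.6, 7.03 and 9.15 CPM in Mesp1 cells against 98.0, 119 and 37.2 (log2 fold change −3.06, SE 0.444, edgeR adjusted p = 9.36e-05), and its span overlaps that of Tsix on the opposite strand. Xist was found in 5 of 19 Mesp1 cells and 14 of 43 other T cells, and a Y-linked transcript in 11 and 27. With only cells that held a Y-linked transcript, 51 of 5209 genes passed, 50 of them among the 209, and none of the 173 shared genes changed sign. The part of mitochondrial share and sex in the other differences was not tested further.

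Since Mesp1 cells held more T, the T threshold was raised in both gates, which does not match the gates for T. The other T cells with at least 5 T transcripts were at 373.5 CPM of T in their sum, with a median of 16 transcripts. All 19 Mesp1 cells were at 676 CPM, with a median of 24. A difference in T thus remained, and its part in the values below was not tested. With at least 2 T transcripts in both gates, 45 genes passed, all among the 209. With at least 5, library 2_13 had no other T cell left, so 2 Mesp1 cells were set against 2 other T cells in 2_9 and 9 against 3 in 2_14. There 28 genes passed, 13 of them among the 209, and 112 of the 130 shared genes kept their sign. Snai1, Mixl1, Frzb and Sp5 had log2 fold changes of 2.80, 1.99, 2.20 and 2.95 in this setting. Eomes had a log2 fold change of 0.12. Of the named genes, 8 changed sign: Utf1, Slc7a3, Otx2, Dnmt3a, Pim2 and Idi1 turned positive, with values from 0.0191 to 0.72, and Id1 and Msx1 turned negative, at −0.29 each. The 5 other T cells with at least 5 T transcripts were at 790.6 CPM of Eomes, 98.1 of Mixl1, 90.0 of Evx1 and 76.3 of Utf1 in their sum. The 25 with a single T transcript were at 233.5, 8.24, 10.1 and 584 CPM. These 5 cells were unlike each other: from the lowest to the highest T count (5, 6, 16, 20 and 90) they held 2, 90, 27, 146 and 25 Eomes transcripts, and 29 of their Mixl1 transcripts came from the cell with 146. Lhx1 was at 5.45, Gata6 at 0 and Cyp26a1 at 2.73 CPM in their sum.

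Mesp1 transcripts outside the gate were spread over cells of 3 other kinds. Of 50 cells with Mesp1 in the 3 libraries, 19 were in the gate, 18 also held Foxa2, 10 held neither T nor Foxa2, and 3 had visceral endoderm genes. The 18 with Foxa2 were at 221 CPM of Mixl1, 130 of Snai1, 104 of Lhx1 and 21.5 of Gata6, below the 495.6, 260.5, 526 and 164 CPM of the pooled Mesp1 cells. The 34 cells with T and Foxa2 but no Mesp1 were at 187 CPM of Mixl1, 117 of Lhx1 and 75.2 of Gsc. The 10 cells with Mesp1 but no T or Foxa2 were at 5.31 CPM of Mixl1, 5.31 of Lhx1 and 648 of Utf1, close to the 98 cells without any of the 3 genes (2.85, 7.68 and 736 CPM). Mesp1 was found in 3 of the 37 visceral endoderm cells (8.11%, 95% exact interval 1.70% to 21.9%), a type that should lack it, and in 47 of the 247 others (19.03%, interval 14.3% to 24.5%). These are sums over pooled cells, without a test. Among the 3 visceral endoderm cells with Mesp1, the highest count was 15 Mesp1 transcripts.

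At E7.5, the same gates in 9 libraries held 101 Mesp1 cells and 118 other T cells, with 3 to 28 cells of a gate in a library. The stages also differed in how cells were collected and in the version of the protocol, so these cannot be told apart. The gates were also unlike: median T was 17 in Mesp1 cells and 2.5 in other T cells, against 24 and 1 at E6.75. At least 5 T transcripts were held by 48 of 118 other T cells, against 5 of 43 at E6.75. Median Mesp1 in Mesp1 cells was 3, against 13 at E6.75. The part of this in differences between the stages was not tested. In a joint fit of both stages, 283 of 7564 genes differed between the gates at E7.5 (3.74%; 142 higher, 1.88%, and 141 lower, 1.86%). Of these, 86 were also among the 209 of the separate E6.75 fit, all in the same direction, which is 41.1% of the E6.75 genes and 30.4% of the E7.5 genes. Lefty2, Cdh1, Dnmt3b and Utf1 were among the 86 (in the joint fit, the edgeR adjusted p of Cdh1 at E6.75 was 0.0544), with E7.5 log2 fold changes of 4.45, −1.39, −0.87 and −1.93. Cdh1 was at a mean of 91.4 ± 40.7 CPM in E7.5 Mesp1 cells and 266 ± 116 in other T cells (SD, n = 9), lower in all 9 libraries.

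The difference between the gates itself differed between the stages for 29 of 7564 genes by edgeR's test of the interaction (0.383%), of which 27 were higher (0.357%) and 2 lower (0.0264%) at E6.75. Of the 29, 8 still differed in the same direction at E7.5, 1 (Tal1) differed in the opposite direction and 20 did not pass at E7.5. The count was 13 without 2_13, 8 without 2_14, 40 without 2_9 and 9 without the library as block. Sp5 had the smallest p, and its log2 fold change in the joint fit was 4.72 at E6.75 and 0.26 at E7.5 (interaction edgeR adjusted p = 1.11e-05). Its level in E7.5 Mesp1 cells was 104 ± 24.9 CPM, while that of other T cells was 113 ± 105 CPM with a median of 84.0 (SD, n = 9). Cyp26a1 did not pass at E7.5 either, at 58.5 ± 54.3 CPM in Mesp1 cells and 39.4 ± 34.0 in other T cells (SD, n = 9). Mixl1, Snai1, Frzb and Lhx1 passed at both stages but were further apart at E6.75, with E7.5 log2 fold changes of 0.98, 1.45, 1.43 and 2.89. Lhx1 in E7.5 Mesp1 cells ranged from 21.6 to 268 CPM with a median of 55.1, against 0 to 22.1 in other T cells. Fgf5 and Mid1ip1 were the 2 genes with a lower difference at E6.75, with joint fit log2 fold changes of −1.87 and −1.86 at E6.75 and −0.18 and 0.16 at E7.5.

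**Figure D5:**
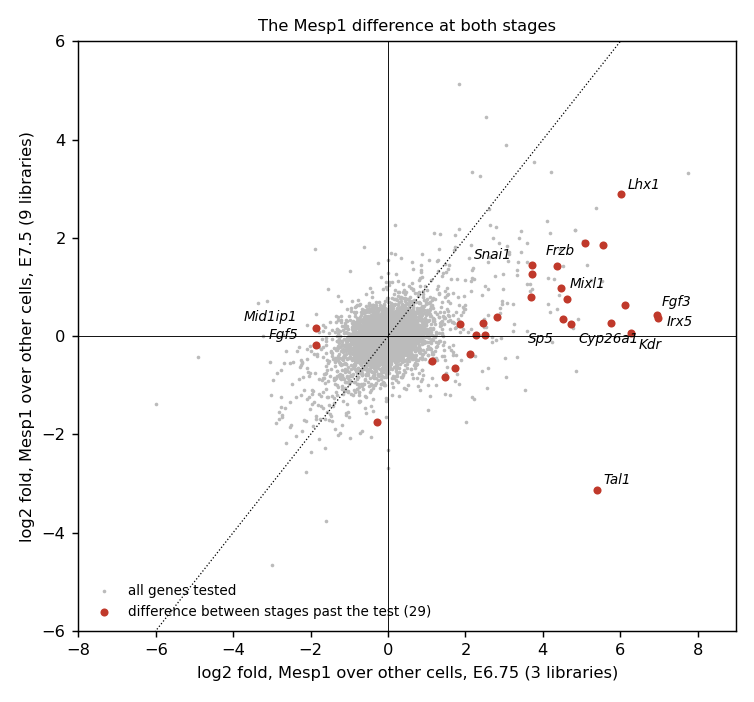
Log2 fold change of Mesp1 cells over other T cells at E6.75 (x axis, 3 libraries) and E7.5 (y axis, 9 libraries) for the 7564 genes of the joint fit. The 29 genes whose difference changed between stages (red) lie mostly to the right of the dotted line of equal change, with Lhx1, Snai1 and Frzb above 0 at both stages.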

How the data were processed

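The authors deposited expected counts, 1 column for each barcode and 1 row for each gene, in which each value equals −K ln(1 − k/K) for k observed UMIs and K = 4096 (from the values). The submitters' processing notes name bcl2fastq 2.17.1.14 and BWA 0.6.2-r126; the genome build, annotation and use of strand are not given in the sources used here. Rows of ERCC spike-ins and mitochondrial genes were left out of depth. Of 192 barcode columns per library, 96 were in use. Libraries 2_13 and 2_14 used different barcodes, and 2_9 shared 48 with each. Doublets were not called at either stage; leaving out E6.75 cells above 3 times the median depth is an alternative.

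The rounded expected counts were summed per library and gate and tested with edgeR 4.0.16 (R 4.3.3; TMM, filterByExpr with a minimum count of 10, quasi-likelihood F test, Benjamini-Hochberg adjustment, library as block), the pairing being that both sums come from 1 library. DESeq2 1.42.0 was an alternative. SE is the log2 fold change divided by the root of F. CPM is scaled to 1000000 transcripts of the sum. E7.5 libraries entered the joint fit with at least 3 cells in each gate. The script was tested on simulated data.

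The cells compared and the 24 gene lists were chosen with earlier results of these data known. Named genes were, among those past the test with 1 sign in all 3 libraries, the 15 most raised and the 15 most lowered, the list members past the test and the 4 most abundant others of each list, and the 5 largest interaction terms in each direction. Other genes were named after their values were seen: those too sparse for the test, and those in the sums of cells beside the gates. Gene positions are from GENCODE M21 (GRCm38) and promoter windows from RefSeq, the first window listed per gene. Of the 78 named genes past the test, 29 overlap an annotated gene on the opposite strand, from which reads may not be told apart. Values of 2 listed genes past the test are not reported here.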

Additional observations from a re-analysis of the deposited data

Results flagged for a closer look

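The difference between Mesp1 cells and other T cells changed between E6.75 and E7.5 for 19 named genes, by edgeR's test of the interaction with the stage. The values are log2 fold changes at E6.75 minus those at E7.5. They were positive for Tal1 (8.52), Irx5 (6.61), Fgf3 (6.50), Kdr (6.21), Cyp26a1 (5.49), Sp5 (4.47), Mixl1 (3.48), Lhx1 (3.12), Frzb (2.93), Pcdh7 (2.90), Apln (2.49), Dlc1 (2.46), Ccnd2 (2.43), Pdgfa (2.38), Snai1 (2.26), Nrp2 (2.24) and Hes1 (1.65). They were negative for Mid1ip1 (−2.02) and Fgf5 (−1.69). Tal1 rests on 1 cell, which held 92.9% of its transcripts in E6.75 Mesp1 cells. The values of Irx5, Kdr and Fgf3 depend on the prior count of the fit, since their other T cells held 0, 1 and 1 transcripts at E6.75.

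In library 2_13, 6 barcodes outside the set in use held at least 2000 transcripts, from 2473 to 8775. All 6 are in use in 2_14, and what 2_13 held of them came to 2.13% to 13.9% of the transcripts of the same barcode in 2_14. Mesp1 had 2 transcripts over the unused barcodes of 2_13.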

How the results depend on the processing

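Of 209 genes at E6.75, the count moved to 58 with DESeq2, 332 of 16224 with no low-count filter (2.05%), 21 of 1700 with cells thinned to 10000 transcripts, 136 without cells above 3 times the median depth, 45 and 28 with at least 2 and 5 T transcripts, 96 with no T requirement, 64 with no Foxa2 requirement, 38 with visceral endoderm transcripts at 0 (2 libraries), and, chosen after seeing the data, 51 with Y-linked cells and 105 with at least 5% mitochondrial transcripts. Leaving out 1 library gave 4 to 271. Without the replicate block it was 180. The cause was not tested, beyond fewer genes or cells where thinning or a gate removed them. Raised genes were 45.5% of calls, but 62.1% with DESeq2, 74.0% with no T requirement, 79.7% with no Foxa2 requirement, 73.7% with visceral endoderm transcripts at 0 and 100% (4 of 4) without 2_13.

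The interaction count of 29 moved to 88 with no filter, 9 without the replicate block and 5 after thinning, and was 8 to 40 without 1 E6.75 library. The E7.5 count of 283 moved to 428 with no filter and 62 after thinning, and was 195 without the replicate block.

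With at least 5 T transcripts, the log2 fold change reversed for Dnmt3a (0.0191), Id1 (−0.29), Idi1 (0.17), Msx1 (−0.29), Otx2 (0.14), Pim2 (0.21), Slc7a3 (0.72) and Utf1 (0.65). With no Foxa2 requirement it reversed for Gsc (−0.0985) and Lrp2 (0.00644). No other of the 78 named genes past the test reversed under an alternative in which it could be tested, which was 45 genes with at least 5 T transcripts, 25 after thinning, 43 with a stricter filter, 58 with Y-linked cells and 62 with at least 2 T transcripts. Counting depth limits sparse genes most: the 2_9 Mesp1 sum holds 94180 transcripts.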
